A study of Homo sapiens with 3 samples.

Results

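The 10 genes described here were 8 metallothioneins, MT2A, MT1X, MT1E, MT1F, MT1G, MT1M, MT1A and MT1B, and the zinc transporters SLC30A1 and SLC39A10, out of 36601 genes with a row in the count matrices. They were chosen by name, with their measured levels in these libraries already known, so the differences in their levels between conditions are a description and were given no test. All 10 genes had a row. Where a metallothionein sum is given, it covers all 12 metallothionein genes with a row, which are these 8 and MT1H, MT1HL1, MT3 and MT4.

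Metallothioneins are small, cysteine-rich proteins of the cytosol that bind zinc and copper and also take up cadmium. The zinc-sensing transcription factor MTF1 binds metal response elements in their promoters when free zinc is high, so transcription of MT2A and the MT1 genes is a classic readout of zinc entering the cytosol. SLC30A1 (ZnT1) exports zinc across the plasma membrane and is itself a target of MTF1. SLC39A10 (ZIP10) brings zinc into the cell, and its transcription is known to be lowered when zinc is high.

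The cells were OVCAR3, an established line of high-grade serous ovarian cancer, grown in medium with serum and treated for 48 h. DMSO was the vehicle alone, RAC1i was 50 µM of NSC23766, which blocks activation of the small GTPase RAC1, and Combo was the same dose of NSC23766 with 5 µM of GSK126 (EZH2i), an inhibitor of the histone methyltransferase EZH2. All 3 groups therefore shared the cell line, the vehicle and the time, and a library with EZH2i alone was not analysed here. Each condition was 1 droplet library of 1 culture, so condition, culture and library cannot be told apart and the conditions could not be tested against each other. The intervals below are 95% intervals for counting error only.

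After filtering, 7531 DMSO, 10215 RAC1i and 8239 Combo cells remained, with a median of 26750, 20989 and 24953 unique molecular identifiers (UMIs) per cell. The median mitochondrial share of a cell's UMIs was 5.60% with DMSO, 1.66% with RAC1i and 1.58% with Combo, and its part in the results below was not tested. Between 15 and 23 kept barcodes were shared by any 2 libraries. All 8 epithelial and serous ovarian markers reached 10 CPM (UMIs per 1000000 UMIs of the library) in DMSO and in RAC1i, and 7 in Combo, with a summed level of 2848, 1668 and 1776.5 CPM. No fibroblast, leukocyte or endothelial marker reached 10 CPM in any library, each of those 3 lists summed to between 1.00 and 5.78 CPM, and 2 leukocyte markers were at 0 in Combo.

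The 8 metallothionein genes lie together on the long arm of chromosome 16 within 75613 bases in the GENCODE 44 annotation of GRCh38. In order along the chromosome they are MT2A (chr16:56608584-56609497), MT1E (chr16:56625475-56627112), MT1M (chr16:56632659-56633981), MT1A (chr16:56638666-56640087), MT1B (chr16:56651886-56653204), MT1F (chr16:56657731-56660698), MT1G (chr16:56666730-56668065) and MT1X (chr16:56682470-56684196). All are on the plus strand except MT1G. SLC30A1 lies at chr1:211571568-211579161 on the minus strand and SLC39A10 at chr2:195575977-195737702 on the plus strand. The metallothioneins are close paralogs, and counts could in principle be split among them. Across the last 300 bases of each transcript, where 3′ libraries take their reads, 0 of 211 windows of 90 bases were identical to another metallothionein for every one of the 8 genes except MT1G, for which 7 of 211 were shared with MT1X.

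Promoters are shown for the 4 genes whose sequence held letters of the metal response element, which MTF1 is known to bind. SLC39A10, which was also higher in both treated libraries, held none and is not shown. Sequences of the 250 bases before the gene start were found in RefSeq (GRCh38.p14) for MT2A, MT1X, MT1B, SLC30A1 and SLC39A10, so 5 of the 10 genes matched. Promoters of MT1E, MT1F, MT1G, MT1M and MT1A are not shown. Capitals mark each match on either strand to TGCACNC or TGCGCNC, the letters of the metal response element, and each line reads 5′ to 3′ towards the gene start.
MT2A (chr16:56608334-56608583, plus strand): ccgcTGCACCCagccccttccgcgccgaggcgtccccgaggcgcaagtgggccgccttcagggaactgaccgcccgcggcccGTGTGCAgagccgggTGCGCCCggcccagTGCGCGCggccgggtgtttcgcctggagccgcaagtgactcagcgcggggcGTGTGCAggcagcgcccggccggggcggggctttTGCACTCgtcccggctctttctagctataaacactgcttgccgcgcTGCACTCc
MT1X (chr16:56682220-56682469, plus strand): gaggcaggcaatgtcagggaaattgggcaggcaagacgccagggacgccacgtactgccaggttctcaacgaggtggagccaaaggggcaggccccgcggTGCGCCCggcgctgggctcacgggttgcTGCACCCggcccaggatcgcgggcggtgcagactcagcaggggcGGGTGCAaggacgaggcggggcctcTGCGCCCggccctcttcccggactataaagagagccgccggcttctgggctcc
MT1B (chr16:56651636-56651885, plus strand): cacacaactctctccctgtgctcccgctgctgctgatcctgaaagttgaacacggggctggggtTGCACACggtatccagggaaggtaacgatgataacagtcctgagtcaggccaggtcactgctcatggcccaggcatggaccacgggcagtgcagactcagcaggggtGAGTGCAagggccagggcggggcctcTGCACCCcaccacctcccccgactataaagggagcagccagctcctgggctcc
SLC30A1 (chr1:211579162-211579411, minus strand): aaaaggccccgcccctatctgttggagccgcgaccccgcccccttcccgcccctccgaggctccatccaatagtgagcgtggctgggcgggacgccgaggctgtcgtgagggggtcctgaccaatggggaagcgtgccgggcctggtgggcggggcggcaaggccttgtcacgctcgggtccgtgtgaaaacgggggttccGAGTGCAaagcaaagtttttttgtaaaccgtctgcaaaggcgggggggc
MT2A held 7 matches, MT1X 4, MT1B 3 and SLC30A1 1. Each of the 4 had a match that began 49 to 54 bases before the gene start, a range read from these same matches. The share of other promoters with a match in that range was not counted, so nothing is read from the position. Neither of the 2 SLC39A10 starts in that table held any match. Both lie inside the GENCODE span given above, whose own start was not examined. Across 35116 promoters of the same length in that table, 24.8% held at least 1 match, 1.58% at least 3, 0.370% at least 4 and 0.0313% at least 7. A match of letters is a description and not a bound site.

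MT2A, the most abundant metallothionein in these cells, stood at 134.8 CPM (133 to 136) with DMSO, 6652 CPM with RAC1i and 9518 CPM with Combo. It was 49.4-fold higher in RAC1i than in DMSO (48.8 to 50.0) and 70.6-fold higher in Combo (69.8 to 71.5). Each UMI counts 1 molecule at the 3′ end, so CPM levels can be set side by side between genes without dividing by length. On that scale MT2A was the gene of rank 1120 in DMSO, rank 9 in RAC1i and rank 6 in Combo among all genes.

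MT1X, the second metallothionein by level, measured 57.5 CPM with DMSO, 1904 CPM with RAC1i and 2849.6 CPM with Combo. Its ratio to DMSO was 33.1 in RAC1i (32.5 to 33.8) and 49.6 in Combo (48.7 to 50.5). MT1F, next in level, measured 24.7, 356 and 493 CPM in DMSO, RAC1i and Combo, and its ratios to DMSO were 14.5 (14.0 to 14.9) and 19.99 (19.4 to 20.6). The 3 metallothioneins that reached 10 CPM in DMSO therefore kept the order MT2A, MT1X, MT1F in every library, while their ratios differed from each other by more than their counting intervals.

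The remaining 5 metallothioneins were at or near the floor of detection in DMSO, where 3 UMIs correspond to 0.0151 CPM. MT1B had 3 UMIs with DMSO, 10369 with RAC1i and 20618 with Combo, or 0.0151, 44.1 and 96.9 CPM. Its ratio to DMSO was 2928 in RAC1i (1002 to 14201) and 6429 in Combo (2199.7 to 31179), with intervals this wide because of the 3 UMIs in the denominator. MT1G had 5, 4890 and 8958 UMIs, or 0.0251, 20.8 and 42.1 CPM, with ratios of 829 (355 to 2553) and 1676 (718 to 5163). As a mean over cells, in which each cell weighs the same, the MT1G ratios were 1439.7 and 3256 and that of MT1B in Combo 10092.

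MT1M had 1 UMI with DMSO, 1165 with RAC1i and 2102 with Combo, the last being 9.88 CPM and just under the 10 CPM asked of a gene in the counts of changes below. With that single DMSO UMI its ratios to DMSO were 987 (177 to 39016.5) and 1966 (353 to 77705). MT1E had 2, 138 and 182 UMIs, with ratios of 58.5 (15.9 to 488) and 85.1 (23.2 to 708). MT1A had 0, 107 and 138 UMIs, which made it at least 30.2-fold higher in RAC1i and at least 43.0-fold higher in Combo against a floor of 3 UMIs in the DMSO library. Thus MT1E and MT1A stayed under 1 CPM in every library, while MT1B reached a level above that of SLC39A10 in Combo.

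**Figure D1:**
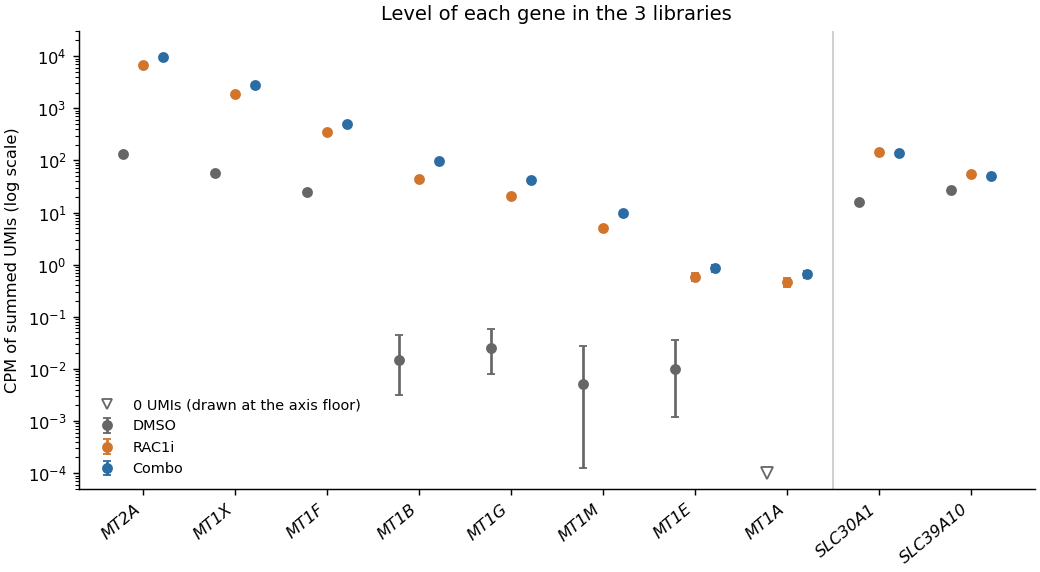
Level of each of the 10 genes in the DMSO, RAC1i and Combo libraries, as CPM of the UMIs summed over kept cells on a log axis, with exact Poisson 95% intervals for counting error. MT2A runs from 134.8 to 9518 CPM, the 5 minor metallothioneins start at 0 to 5 UMIs in DMSO (an open triangle marks 0), and the 2 transporters differ less between libraries.

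SLC30A1, the zinc exporter, stood at 16.2 CPM (15.6 to 16.7) with DMSO, 145 CPM with RAC1i and 140.0 CPM with Combo. It was 8.96-fold higher in RAC1i than in DMSO (8.64 to 9.30) and 8.66-fold higher in Combo (8.35 to 8.99). SLC39A10, the importer, measured 27.4 CPM with DMSO, 55.5 CPM with RAC1i and 51.2 CPM with Combo. Its ratio to DMSO was 2.02 in RAC1i (1.96 to 2.09), just past a 2-fold limit, and 1.86 in Combo (1.805 to 1.93), just within it. Its side of that limit turned on the processing. In RAC1i it was 1.93-fold higher without mitochondrial genes in the total, 1.99-fold with every deposited barcode and 1.97-fold without the 1% of cells with the most metallothionein UMIs, and in Combo 2.02-fold higher with DESeq2 size factors and 2.69-fold as a mean over cells. So the exporter and the importer were both higher in the treated libraries, the exporter by the larger ratio. In DMSO SLC39A10 was the more abundant of the pair, and in both treated libraries SLC30A1 was.

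Of the 10 genes, 7 reached 10 CPM in at least 1 library of each pair. With RAC1i, 7 of these 7 were over 2-fold higher than in DMSO and 0 were over 2-fold lower, where 13.1% and 24.6% of the 8778 genes that reached 10 CPM were. In Combo, 6 of 7 were over 2-fold higher than in DMSO and 0 lower, against 11.8% and 22.8% of 8745 genes. The genes had been chosen for this contrast, and nothing is read from these counts. The median log2 ratio over all those genes was -0.20 for RAC1i and -0.18 for Combo, and 5.05 and 5.63 over the 7 genes. By ratio to DMSO, MT1B ranked 2, MT1G 3, MT2A 17, MT1X 29, MT1F 65, SLC30A1 109 and SLC39A10 1122 among the 8778 genes in RAC1i. MT1B and MT1G reached 10 CPM only in the treated libraries, and their ranks rest on 3 and 5 DMSO UMIs. The limit thus shaped the counts, the medians over the 7 genes and these ranks, and nothing is read from them.

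Combo differed from RAC1i by the added EZH2i and by its culture and library, and the pair lay close to each other across all genes, with a median log2 ratio of 0.01. Of 7443 genes with 10 CPM in either library, 0.0269%, or 2 genes, were over 2-fold higher in Combo and 0.0134%, or 1 gene, over 2-fold lower. Those 2 genes were MT1B, 2.20-fold higher (2.14 to 2.25), and MT1G, 2.02-fold higher (1.95 to 2.09), the first and second of all 7443, although MT1G was at 1.96 once cells over 2 times the median UMIs were left out, an alternative chosen after seeing the data. MT1X at 1.496-fold ranked 15, MT2A at 1.43-fold ranked 29 and MT1F at 1.38-fold ranked 59. MT1M at 1.99-fold (1.85 to 2.14), MT1E at 1.46-fold (1.16 to 1.83) and MT1A at 1.42-fold (1.10 to 1.85) were below the 10 CPM limit. The summed level of each of the 8 metallothioneins was thus higher in Combo than in RAC1i. For MT1E and MT1A this rests on very few cells, since 5 RAC1i and 4 Combo cells held at least 50% of each gene's UMIs, which the counting intervals do not cover. The same limit holds for the other minor genes. At least 50% of the UMIs lay in 48 RAC1i and 28 Combo cells for MT1M, 92 and 90 for MT1G, and 183 and 156 for MT1B. After thinning, MT1A was found in 0.196% of RAC1i and 0.109% of Combo cells, and among the cells with the fewest UMIs the MT1E ratio was 0.740. The transporters had a Combo to RAC1i ratio of 0.967 for SLC30A1 (0.952 to 0.982) and 0.921 for SLC39A10 (0.898 to 0.945). These small differences did not hold in every class of cells, since in the cells with the highest mitochondrial share the ratios were 1.005 and 1.03.

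Summed over the 12 metallothionein genes, there were 43246 UMIs with DMSO, 2111562 with RAC1i and 2769824 with Combo. That is 217, 8987 and 13017 CPM, or 0.0217%, 0.899% and 1.30% of all UMIs in the library. The sum was 41.4-fold higher in RAC1i (41.0 to 41.8) and 59.9-fold higher in Combo (59.3 to 60.5) than in DMSO. Its make-up also differed. MT2A supplied 62.0% of the metallothionein UMIs with DMSO, 74.0% with RAC1i and 73.1% with Combo, whereas MT1F supplied 11.3%, 3.97% and 3.79%. MT1X supplied 26.5%, 21.2% and 21.9%, and MT1B 0.00694%, 0.491% and 0.744%.

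To compare cells at one depth, each cell was thinned to 5000 UMIs, leaving 6725 DMSO, 9200 RAC1i and 7354 Combo cells after 806, 1015 and 885 shallower cells were set aside. A metallothionein UMI was then found in 58.6% of DMSO cells (57.4 to 59.8), 97.8% of RAC1i cells and 99.2% of Combo cells. Without thinning the shares were 88.3%, 99.7% and 99.8%. The libraries hold 1 cell line, so no cell type lacking these genes gave a background for free RNA, and its part was not tested. A median thinned cell carried 1 metallothionein UMI with DMSO, 33 with RAC1i and 50 with Combo. More than 7 UMIs, the 99th percentile of DMSO, were found in 79.1% of RAC1i and 87.0% of Combo cells, so higher counts were seen in most treated cells.

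Cell to cell the amounts remained far apart. The 10th and 90th percentiles were 0 and 3 UMIs in DMSO, 3 and 134 in RAC1i, and 6 and 212 in Combo, with a maximum of 38, 639 and 1180. As a measure of spread that leaves out counting noise, the variance minus the mean was divided by the squared mean, which gave 1.15 with DMSO, 1.37 with RAC1i and 1.40 with Combo. The 10% of cells with the most metallothionein UMIs held 39.5%, 37.5% and 37.6% of them. Those shares include counting noise, which weighs most at the low counts of DMSO. At 2500 UMIs per cell, which lets in shallower cells, the spread was 1.02, 1.49 and 1.44, and with another random draw at 5000 UMIs it was 1.25 in DMSO. Among single genes, MT2A had a spread of 1.77 with DMSO, 1.49 with RAC1i and 1.48 with Combo, where the median gene with at least 50 CPM had 0.135, 0.215 and 0.233.

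**Figure D2:**
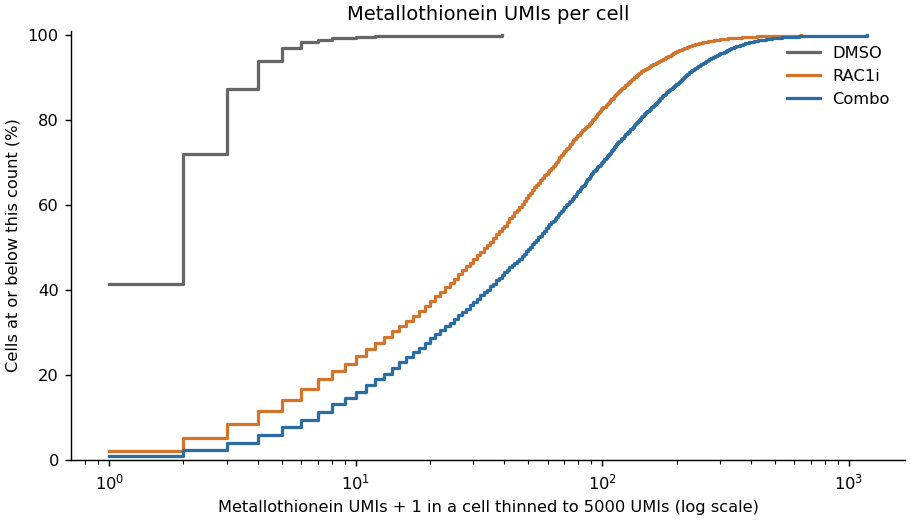
Distribution of the metallothionein sum per cell in each library, in UMIs per cell thinned to 5000 UMIs. The medians are 1 UMI with DMSO, 33 with RAC1i and 50 with Combo, and the treated distributions are broad, with 10th and 90th percentiles of 3 and 134 UMIs in RAC1i.

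Gene by gene at the thinned depth, an MT2A UMI was found in 42.3% of DMSO, 96.1% of RAC1i and 98.3% of Combo cells. MT1X was found in 23.4%, 84.6% and 89.9% and MT1F in 11.6%, 71.8% and 80.3% of the cells of the same libraries. For SLC30A1 the shares were 7.17%, 42.4% and 43.3%, and for SLC39A10 12.0%, 23.0% and 22.1%. Unthinned, SLC30A1 was found in 30.4%, 73.2% and 76.8% of cells and SLC39A10 in 44.3%, 53.3% and 53.0%. SLC30A1 and SLC39A10 were thus seen in more treated than DMSO cells at either depth, though in fewer treated cells than the 3 main metallothioneins when thinned.

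The minor metallothioneins were concentrated in few cells. At the thinned depth MT1B was found in 9.21% of RAC1i and 13.1% of Combo cells and MT1G in 5.32% and 9.07%. In the unthinned data the 1% of cells with the most MT1G UMIs held 52.2% of that gene's UMIs in RAC1i and 48.2% in Combo. For MT1B the share was 37.1% and 35.9%, and for MT1M 71.8% and 78.1%. The same share of cells held 6.96% and 6.38% of MT2A and 9.73% and 8.67% of SLC30A1. One Combo cell carried 532 UMIs of MT1B, and one RAC1i cell 40 of the 107 MT1A UMIs in that library. The high folds of MT1B, MT1G and MT1M over DMSO were thus carried by a minority of cells, unlike those of MT2A and MT1X.

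Cells with more of the other metallothioneins were also more often positive for a minor one. From the lowest to the highest of 5 equal groups of cells ordered by the other metallothioneins, the share with an MT1B UMI went from 1.79% to 19.4% in RAC1i and from 2.31% to 25.6% in Combo. For MT1G it went from 0.489% to 15.3% and from 0.680% to 27.3%, and for MT1M from 0.0543% to 3.75% and from 0.136% to 4.08%. MT1G was found in 14.6% of MT1B-positive RAC1i cells and in 4.37% of the rest, and in 20.7% and 7.32% of the same classes in Combo. In RAC1i 124 thinned cells held a UMI of both, of 847 with MT1B and 489 with MT1G, and at this depth a count of 0 does not show that a cell lacks the transcript.

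**Figure D3:**
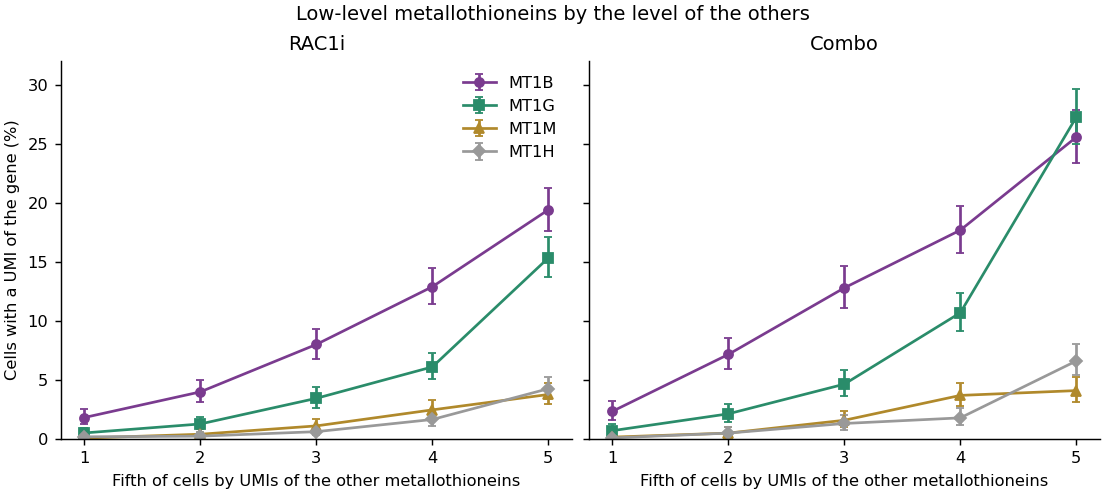
Percent of thinned cells with a UMI of MT1B, MT1G, MT1M or MT1H, across 5 equal groups of cells ordered from the lowest to the highest sum of the other metallothioneins, in RAC1i and Combo. MT1B runs from 1.79% to 19.4% in RAC1i and from 2.31% to 25.6% in Combo.

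Within each treated library the main metallothioneins varied together from cell to cell. Pearson r of MT2A with MT1X, on log2(UMIs + 1) of thinned cells, was 0.141 over 6725 DMSO cells, 0.866 over 9200 RAC1i cells and 0.893 over 7354 Combo cells. The cells of a library share a culture and a droplet run, and these values are a description. Low counts bound r in DMSO, and when the RAC1i and Combo counts of both genes were thinned to the DMSO level, a step chosen after seeing the data, r became 0.347 and 0.353. Another form of r was taken on thinned UMIs without the log, with the part of the variance due to counting removed. It was 0.532 with DMSO, 0.862 with RAC1i and 0.887 with Combo. On the log scale MT2A with MT1F gave 0.0936, 0.565 and 0.603, but 0.155 and 0.120 in RAC1i and Combo at the DMSO level. MT2A with SLC30A1 gave -0.0220 with DMSO, 0.352 with RAC1i and 0.323 with Combo, and MT2A with SLC39A10 gave -0.0215, 0.234 and 0.235. At the DMSO level the treated values were 0.0972 and 0.0943 for SLC30A1 and 0.120 and 0.126 for SLC39A10. SLC30A1 with SLC39A10 gave 0.0145, 0.251 and 0.2499, or 0.0522 and 0.0919 in RAC1i and Combo at the DMSO level. Without counting noise, on UMIs without the log, that pair was at 0.331, 0.661 and 0.701. On the same scale MT2A with SLC30A1 was at -0.186, 0.445 and 0.387 and MT2A with SLC39A10 at -0.131, 0.406 and 0.393. In DMSO these pairs divide a covariance near 0 by a small excess variance, since SLC30A1 had a variance of 0.0776 and a mean of 0.0755. The sampling error of these values was not estimated, and nothing is read from their sign in DMSO.

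**Figure D4:**
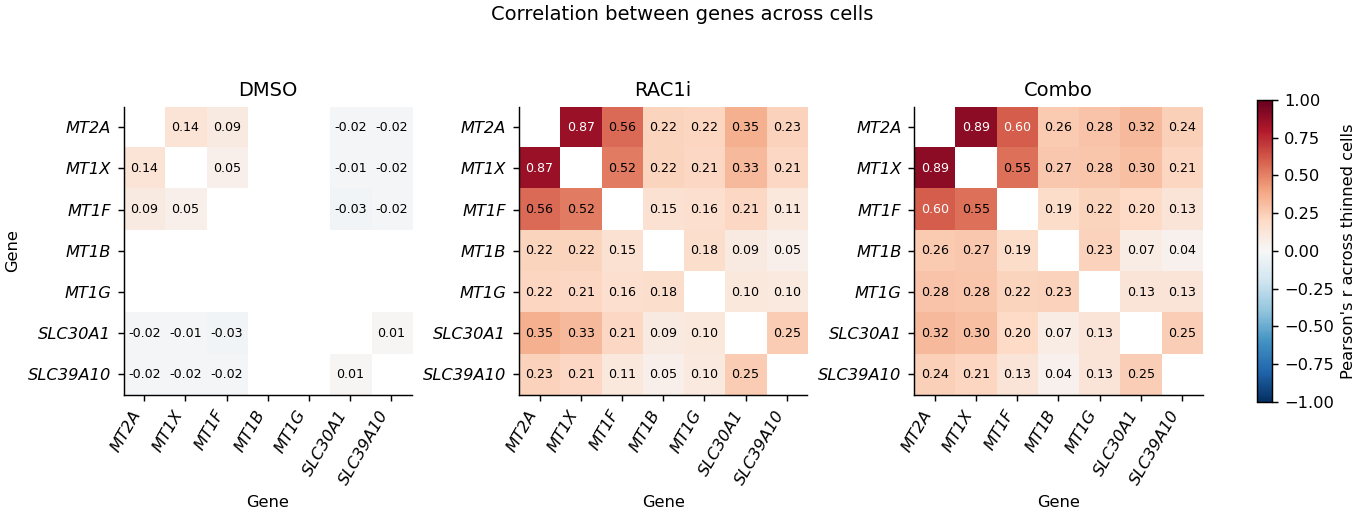
Pearson r between pairs of the genes across thinned cells, on log2(UMIs + 1), in DMSO, RAC1i and Combo. MT2A with MT1X reaches 0.866 in RAC1i and 0.893 in Combo against 0.141 in DMSO, where counts are low.

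The same relation can be read as levels. Between the lowest and the highest of 5 equal groups of RAC1i cells ordered by MT2A, the mean MT2A count went from 2.00 to 120 UMIs per thinned cell and MT1X from 0.729 to 30.7, a 42.1-fold difference. MT1F differed 7.07-fold between those groups, SLC30A1 5.83-fold, from 0.252 to 1.47 UMIs, and SLC39A10 4.14-fold, from 0.148 to 0.615 UMIs. Combo gave 41.9-fold for MT1X, 4.75-fold for SLC30A1 and 4.20-fold for SLC39A10. MTF1, the metal-sensing factor, differed 0.799-fold in RAC1i and 0.804-fold in Combo. In DMSO, cells with at least 2 MT2A UMIs had 1.98 times the MT1X of cells with 0, but 0.754 times the SLC30A1 and 0.790 times the SLC39A10. RAC1i and Combo cells high in MT2A were therefore high in both transporters. The DMSO classes cannot be set beside this. Their highest class had a mean of 2.86 MT2A UMIs, near the 2.00 of the lowest RAC1i group, and nothing is read from their direction. The groups were also not matched for total UMIs before thinning, with which the CPM of MT2A and of SLC39A10 varied in RAC1i. The part of depth was not tested.

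The metallothionein share of a cell's UMIs also varied with depth. In RAC1i the sum was 17955 CPM in the lowest of 3 equal groups of cells ordered by total UMIs, 10047 CPM in the middle group and 6661 CPM in the highest. In Combo the values were 29250.2, 15299 and 8826 CPM, and in DMSO 262, 209 and 214 CPM. The RAC1i to DMSO ratio was 68.4, 48.1 and 31.2 across those groups, and Combo to DMSO 111, 73.3 and 41.3. SLC39A10 moved likewise, from 91.9 to 42.2 CPM in RAC1i, with ratios to DMSO of 3.89, 2.22 and 1.59. SLC30A1 differed less by depth, at 169, 171 and 127 CPM in RAC1i. The direction was the same at every depth, but the size of the ratio was not, and the part that total RNA per cell had in it was not tested.

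**Figure D5:**
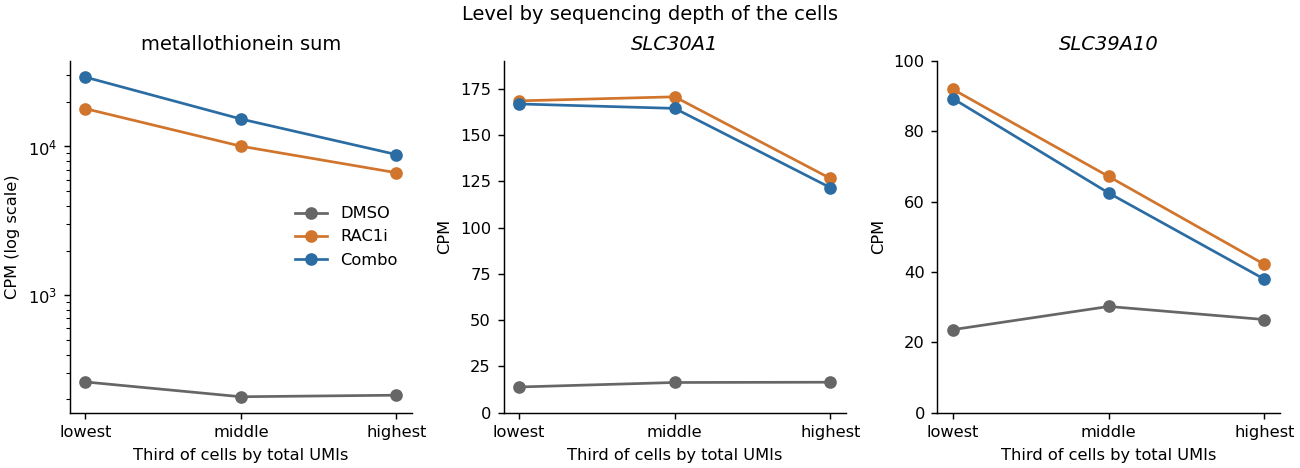
CPM of the metallothionein sum (log axis), SLC30A1 and SLC39A10 (linear axes from 0) in the lowest, middle and highest of 3 equal groups of cells by total UMIs in each library. The sum in RAC1i goes from 17955 to 6661 CPM while DMSO stays between 209 and 262 CPM.

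In 3 equal groups of cells by mitochondrial share, from lowest to highest, the metallothionein sum was 8220.3, 8801 and 10736 CPM in RAC1i, 11732, 11813 and 18155 CPM in Combo, and 275, 215 and 182 CPM in DMSO. The treated libraries thus had their highest value, and DMSO its lowest, in their own cells richest in mitochondrial RNA. The groups were formed within each library. The highest RAC1i and Combo groups had a lower median mitochondrial share than the middle DMSO group. The groups were also not matched for total UMIs per cell, with which the sum varied. The part of depth in this pattern was not tested. In such groups by the share of G2/M genes the sum was 10166, 8908 and 8174 CPM in RAC1i, 14046, 12890.0 and 12384 CPM in Combo, and 207, 219 and 224 CPM in DMSO. SLC30A1 was higher in treated cells with a higher G2/M share, at 124, 144 and 162 CPM in RAC1i and 114, 141 and 158 CPM in Combo. In DMSO it was at 16.3, 15.3 and 16.9 CPM.

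Among the other zinc exporters of the SLC30 family, which move zinc out of the cytosol to organelles or the outside, none of the 4 with 10 CPM passed 2-fold. Of 10 genes in the family 5 reached 10 CPM, and SLC30A1 was the 1 that was over 2-fold higher in each treated library, with 0 lower, beside 13.1% higher and 24.6% lower over all genes in RAC1i and 11.8% and 22.8% in Combo. The median log2 ratio of the 5 was 0.68 in RAC1i and 0.37 in Combo. SLC30A5 measured 32.8, 23.3 and 23.4 CPM in DMSO, RAC1i and Combo, and SLC30A6 20.2, 32.4 and 26.7 CPM. SLC30A7 measured 27.3, 44.1 and 35.2 CPM and SLC30A9 40.9, 23.5 and 24.98 CPM. Exporters under the 10 CPM limit went in either direction, such as SLC30A2, 9.52-fold and 14.6-fold higher in RAC1i and Combo, and SLC30A4, at 0.310 and 0.404 of DMSO.

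Of 14 SLC39 genes, which bring zinc into the cytosol, 9 reached 10 CPM. With RAC1i, 2 were over 2-fold higher than in DMSO, SLC39A9 and SLC39A10, and 2 were lower, SLC39A3 and SLC39A4, beside 13.1% and 24.6% of all genes. SLC39A9, a Golgi transporter, measured 22.1, 63.6 and 50.6 CPM in DMSO, RAC1i and Combo. SLC39A3 measured 20.02, 4.20 and 4.90 CPM, and SLC39A4, the importer mutated in acrodermatitis enteropathica, 47.0, 22.2 and 27.2 CPM. In Combo 1 was higher, SLC39A9, and 1 lower, SLC39A3, beside 11.8% and 22.8%. The other 5 of the 9 were within 2-fold in RAC1i: SLC39A1 at 77.6, 97.9 and 106 CPM, SLC39A6 at 75.6, 63.2 and 55.7 CPM, SLC39A7 at 37.4, 43.1 and 44.5 CPM, SLC39A8 at 45.5, 31.3 and 22.8 CPM, and SLC39A14 at 38.4, 43.9 and 39.3 CPM. Importers under the limit also went in either direction, such as SLC39A2, 5.00-fold and 4.21-fold higher in RAC1i and Combo, and SLC39A13, at 0.342 and 0.391 of DMSO. The median log2 ratio of the 9 importers was 0.19 in RAC1i and 0.03 in Combo, beside -0.20 and -0.18 over all genes.

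MTF1 itself measured 20.8 CPM with DMSO, 47.1 CPM with RAC1i and 40.7 CPM with Combo, 2.27-fold and 1.96-fold over DMSO. Its ratio was far below those of MT2A and MT1X.

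Genes of neighbouring pathways were read from lists drawn up with results of these libraries known. Of 9 copper-handling genes 6 were measured, and 0 were over 2-fold higher and 1 lower in RAC1i. COX17, a copper chaperone of the mitochondria, stood at 294, 563 and 639 CPM, and CCS, which loads copper onto superoxide dismutase, at 53.9, 5.44 and 6.16 CPM. Of 10 genes of metal and oxidant stress 9 were measured, with 0 higher and 4 lower in RAC1i. DNAJB1, a heat shock co-chaperone, measured 41.2, 75.2 and 87.9 CPM, and the cystine transporter SLC7A11 26.0, 0.992 and 0.700 CPM. The median log2 ratio in RAC1i was -0.09 for the copper list and -0.71 for the stress list, beside -0.20 over all genes. The RAC1i counts stand beside 13.1% higher and 24.6% lower over all genes. In Combo COX17 was over 2-fold higher and CCS lower, and in the stress list 1 gene was higher, DNAJB1, and 4 lower, HSPA1A, GCLM, TXNRD1 and SLC7A11, beside 11.8% and 22.8% of all genes. HMOX1, the haem oxygenase gene of the stress list, was under the 10 CPM limit at 1.71, 4.35 and 4.86 CPM, 2.55-fold higher in RAC1i and 2.85-fold in Combo.

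MT2A is also a known glucocorticoid target. Of 6 other glucocorticoid targets 4 were measured and 3 were over 2-fold higher in RAC1i, with a median log2 ratio of 2.25, beside 13.1% of all genes. In Combo 2 of 3 measured were higher, beside 11.8%. PER1 and KLF9, the latter at 2.31, 10.2 and 8.29 CPM, reached 10 CPM only in a treated library. The limit thus shaped the count and the median, and nothing is read from them. PER1, a clock gene, measured 1.798, 18.4 and 17.5 CPM, and TSC22D3, the leucine zipper gene GILZ, 16.7, 9.60 and 12.3 CPM. FKBP5, an immunophilin gene under the 10 CPM limit, measured 8.10, 2.66 and 2.43 CPM. Of 7 iron-handling genes 6 were measured, with 0 higher, 3 lower and a median log2 ratio of -0.80 in RAC1i, beside 13.1% higher and 24.6% lower over all genes. In Combo 0 were higher and 2 lower, beside 11.8% and 22.8%. FTL, at 1047, 523 and 549 CPM, lay almost exactly on the 2-fold limit in RAC1i. TFRC, the transferrin receptor, stood at 133, 205 and 166 CPM and ACO1, the iron-responsive regulator, at 30.1, 8.95 and 11.1 CPM. SLC40A1, the iron exporter, was under the limit at 3.67, 0.209 and 0.216 CPM. The study lists MT2A, MT1X and MT1F among the top genes of its cluster of differentiation and development. All 7 further genes of that list were over 2-fold higher in both treated libraries, beside 13.1% of all genes in RAC1i and 11.8% in Combo. The median log2 ratio of the 7 was 3.03 in RAC1i. That list was chosen on these samples and is not independent evidence. GADD45B, a stress-induced growth regulator, had the highest ratio of them, at 12.9, 622 and 575 CPM, and ID1, an inhibitor of basic helix-loop-helix factors, the lowest, at 575, 3379 and 3105 CPM.

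Across cells, the gene most like the metallothionein sum, by the mean of its 3 values of Pearson r and out of 2141 genes other than metallothioneins that reached 50 CPM everywhere, was TMSB10, which encodes an actin-binding thymosin. Its r was 0.169 with DMSO, 0.459 with RAC1i and 0.496 with Combo. The next were RPL32 with a mean r of 0.355, RPS19 with 0.314, ID1 with 0.306, NFKBIA with 0.301, C19orf33 with 0.294, TCEAL9 with 0.276 and RPL37A with 0.275. In DMSO alone r was 0.076 for RPL32, 0.108 for RPS19, 0.052 for ID1 and 0.020 for NFKBIA. It was 0.047 for C19orf33, 0.011 for TCEAL9 and 0.044 for RPL37A, where the 95th percentile of the 2141 genes was 0.069. RPL32, RPS19 and RPL37A encode ribosomal proteins, and NFKBIA the NF-kappa-B inhibitor alpha. The lowest were the nuclear RNAs NEAT1 with -0.292 and MALAT1 with -0.288, and PABPC1 and SNHG7, both with -0.265. With DMSO alone r was -0.169 for NEAT1 and -0.177 for MALAT1, but -0.0022 for PABPC1 and -0.0010 for SNHG7. The median r of all 2141 genes was 0.00799 in DMSO and -0.0571 in RAC1i, and cells of 1 library share depth and composition effects that r includes.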

How the data were processed

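Single-cell RNA-seq libraries of OVCAR3 cells were made with a 10x Chromium 3′ v3.1 kit and sequenced on a NovaSeq. The authors produced the deposited UMI counts, 1 matrix of genes by barcodes for each of DMSO, RAC1i and Combo, with Cell Ranger 4.0.0 and GRCh38. Groups were taken from the labels. Following the study's filter, barcodes with 1000 genes or fewer, over 20% mitochondrial UMIs or a complexity of 0.8 or less were removed, leaving 7531 of 10071, 10215 of 11772 and 8239 of 9757 barcodes and 199063947, 234969742 and 212792113 UMIs in DMSO, RAC1i and Combo. No doublet caller was run, and doublets were not removed.

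From these counts, UMIs were summed over kept cells, divided by the library total and given as CPM with exact Poisson intervals. Ratios had exact conditional intervals and shares of cells Clopper-Pearson intervals, all at 95%, for counting error only, because reads of 1 library give no replicate error. Genes needed 10 CPM in the higher library of a pair to be counted as past 2-fold. Measures per cell used a random draw of 5000 UMIs from each cell. The members and all gene lists were chosen with earlier results of these data known. Named genes were the members, all metallothioneins, SLC30 and SLC39 genes with 10 CPM, MTF1, the largest rise and fall in RAC1i among genes with 10 CPM in each other list, and the 8 most and 4 least similar genes. HMOX1, FKBP5, KLF9, FTL, SLC40A1, SLC30A2, SLC30A4, SLC39A2, SLC39A13, HSPA1A, GCLM and TXNRD1 fall outside that rule and were named after their values were seen.

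Symbols were taken from the deposited features, of which 36366 of 36601 identifiers (99.4%) were in GENCODE 44. Promoters came from RefSeq and were checked against the GRCh38 sequence. Python 3.11.15 with numpy 2.4.6, scipy 1.17.1 and pandas 2.3.3 was used, with edgeR 4.0.16 (TMM) and DESeq2 1.42.0 (size factors) in R 4.3.3 for scaling alternatives only. The scripts were tested on simulated data. Alternatives covered the cell filter, scaling, weighting of cells, cells rich in metallothionein, thinning depth and seed, and the minimum CPM.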

Additional observations from a re-analysis of the deposited data

Results flagged for a closer look

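Barcodes removed for having over 20% mitochondrial UMIs enter the comparisons above only where every deposited barcode was used, and they also held metallothionein UMIs above the control level. The metallothionein sum there was 14508 CPM over 534 RAC1i barcodes and 19707 CPM over 508 Combo barcodes, beside 70.1 CPM (63.7 to 77.0) over 1592 DMSO barcodes. Kept cells of the same libraries had 8987, 13017 and 217 CPM. Among barcodes that failed another limit, the sum was 8537 CPM over 1023 RAC1i, 11655 CPM over 1010 Combo and 254 CPM over 948 DMSO barcodes. These held 19007739, 26722837 and 2064976 UMIs in all, so the DMSO barcodes were far shallower and the classes were not alike. With mitochondrial UMIs left out of the total, the high-mitochondrial barcodes had 23188 CPM in RAC1i, 31355 CPM in Combo and 157 CPM in DMSO, and kept cells 9152, 13241 and 231 CPM. The difference between treated and control libraries was thus present in the removed barcodes too. Relative to all kept cells, the high-mitochondrial barcodes were higher in RAC1i and Combo and lower in DMSO, but depth was not matched. The high-mitochondrial barcodes held only 883436 UMIs in RAC1i and 938967 in Combo. Kept cells in the lowest of 3 equal groups by total UMIs had 17955 CPM in RAC1i and 29250.2 CPM in Combo. Both values were above the 14508 and 19707 CPM of the high-mitochondrial barcodes. In DMSO that lowest group had 262 CPM. The part of depth was not tested.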

How the results depend on the processing

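No paired analysis was possible because each condition is 1 library. For the metallothionein sum, MT2A, MT1X, MT1F, MT1B, MT1G, SLC30A1 and SLC39A10, the direction of the ratio to DMSO was the same under each alternative run. The metallothionein sum, 41.4-fold higher in RAC1i and 59.9-fold in Combo as reported, was 40.02 and 57.9 with a mitochondrial limit of 10%, 43.7 and 63.8 with TMM, 44.8 and 65.0 with DESeq2 size factors, 39.5 and 57.2 without mitochondrial genes in the total, 53.5 and 79.5 as a mean over cells, and 42.3 and 61.5 without the 1% of cells with the most metallothionein UMIs. With every deposited barcode RAC1i was at 42.1. Without cells over 2 times the median UMIs, an alternative chosen after seeing the data, the ratios were 46.1 and 65.9. Combo to RAC1i stayed between 1.43 and 1.48 under these alternatives. Between classes of cells it varied more. From the lowest to the highest group it was 1.63, 1.52 and 1.32 by total UMIs and 1.43, 1.34 and 1.69 by mitochondrial share. Of the 10 genes, 6 to 7 were past 2-fold in RAC1i and 6 to 8 in Combo. SLC30A1 ranged from 8.57 to 10.8 and SLC39A10 from 1.93 to 2.80 in RAC1i.

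Thinning to 2500 UMIs gave shares of cells with a metallothionein UMI of 38.6%, 95.1% and 98.0% in DMSO, RAC1i and Combo, a spread of 1.02, 1.49 and 1.44 (1.25 in DMSO with another random draw at 5000 UMIs), and a correlation of MT2A with MT1X of 0.0840, 0.841 and 0.869. With the 10% mitochondrial limit the share in DMSO was 60.02%, the spread 1.36 in RAC1i and 1.38 in Combo, and the correlation 0.892 in Combo. On unthinned counts as log2(CPM + 100), which changes the scale as well as the depth, the correlation was 0.275, 0.915 and 0.924, and at the DMSO level, chosen after seeing the data, 0.347 in RAC1i and 0.353 in Combo. The 2500-UMI values also include shallower cells.

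The median log2 ratio of all genes moved from -0.20 to -0.12 in RAC1i with TMM and to -0.09 with DESeq2 size factors. Without mitochondrial genes in the total it moved the other way, to -0.27. With no minimum CPM, 32.7% of genes were over 2-fold higher and 25.6% lower in RAC1i, 30.9% and 25.7% in Combo, and 8.61% and 9.73% between Combo and RAC1i. These shares then include genes with as few as 1 UMI, and there is no replicate error to set beside any of these values.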

Other observations

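Of the metallothioneins outside the 8 named genes, MT1H stood apart between libraries. MT1H, which lies between MT1G and MT1X on chromosome 16, had 0 UMIs in DMSO, 608 in RAC1i and 1043 in Combo, and was at least 172-fold and at least 325-fold higher than a floor of 3 UMIs in the DMSO library. It was 1.89-fold higher in Combo than in RAC1i, and its 250-base promoter held 8 matches to the metal response element letters. MT3, the brain-enriched member of the family, had 56, 80 and 126 UMIs in DMSO, RAC1i and Combo, all under 1 CPM, with a ratio to DMSO of 1.21 in RAC1i (0.849 to 1.73) and 2.10 in Combo (1.52 to 2.94). MT1HL1 had 0, 9 and 2 UMIs and MT4, known from squamous epithelium, 0, 4 and 0 UMIs, too few to compare, and the MT4 promoter held 3 matches, as many as that of MT1B. SLC30A2, a vesicular zinc transporter, stood at 0.322, 3.06 and 4.71 CPM, below the 10 CPM asked of the genes counted above.

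SLC39A10 had a spread between cells of 1.63 in RAC1i and 1.75 in Combo, rank 35 of 2769 and rank 38 of 2773 genes with at least 50 CPM, although its ratio to DMSO was the smallest of the 7 measured genes. SLC30A1 had 1.37 and 1.16. MT1B in Combo had a spread of 23.2, rank 2 of 2773 genes.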
